A study of Drosophila melanogaster with 2 samples.

Results

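The cells described here were 306 glutamatergic neurons, selected by measured transcripts from 33552 cells of dissociated Drosophila larval brains with eye discs. A unique molecular identifier (UMI) counts 1 captured RNA molecule. A cell was taken when it held at least 1 UMI of VGlut, the vesicular glutamate transporter, and at least 1 each of nSyb and brp, which encode a synaptic vesicle protein and an active zone protein. It also had to hold no UMI of VAChT and Gad1, the marker genes of cholinergic and GABAergic neurons, and none of 9 other genes. These were the Hox genes Antp, Ubx and abd-A, the neuronal fate factors bsh, hbn, dac, tup and eya, and the glial factor repo. The same selection with VAChT or Gad1 in place of VGlut gave 976 cholinergic and 173 GABAergic neurons, which served for comparison. The glutamatergic cells made up 0.912% of all cells, with an exact binomial 95% interval of 0.813% to 1.02%. Intervals here cover counting error only, since cells of 1 library are not replicates.

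The study compared brain complexes, the larval brain with its attached eye discs, of mirr>ND-42 RNAi larvae with those of mirr>OreR larvae. In the mirr>ND-42 RNAi larvae the mirr-Gal4 driver, active in part of the eye disc, directed RNAi (line BL28894) against ND-42, a subunit of mitochondrial complex I. The mirr>OreR label names the same driver in the control, whereas the methods name Oregon-R larvae. Both groups were raised to 120 h at 25 °C, with 1 library each from an unstated number of larvae, and cells were released with trypsin for 10x sequencing. The 2 deposited tables, 1 for each genotype, were identical in all values and shared all 33552 barcodes. They were therefore used as 1 library of open genotype, in which mirr>ND-42 RNAi and mirr>OreR cannot be told apart, and no test between groups was possible. Cells of this library held 500 to 333220 UMIs with a median of 4092.

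In flies, glutamate is the transmitter of motor neurons at the neuromuscular junction and of many interneurons in the brain. VGlut loads glutamate into synaptic vesicles, and its expression defines the class. In the fly brain glutamate acts through ionotropic and metabotropic receptors as well as through GluClalpha, a glutamate-gated chloride channel, so that it can be inhibitory. Many neurons of the late larval brain are immature and still build their axons and synapses.

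The selection removed most VGlut-positive neurons step by step. Of 6250 cells with nSyb and brp, 1291 held VGlut, and 921 of these held neither VAChT nor Gad1. The 3 Hox genes reduced the number to 721, bsh and hbn to 530, dac, tup and eya to 308, and repo to 306. The 306 cells were thus 23.7% of the VGlut-positive neurons. Median depth was 4655 UMIs in glutamatergic, 4277.5 in cholinergic and 5608 in GABAergic cells, and the glutamatergic range was 997 to 32989. Because VGlut chose the cells, its level is only a description. VGlut had 1036 UMIs in the class, which is 6.13 UMIs per 10000, and the median cell held 2 UMIs. Just inside the threshold, 98 cells (32.0%) rested on 1 VGlut UMI, while 16 cells held 10 to 23. Just outside it stood 882 neurons with no UMI of any of the 3 transmitter genes, and 64 further cells had VGlut and 1 UMI of VAChT or Gad1. A single UMI of their own gene carried 428 cholinergic cells (43.9%) and 112 GABAergic cells (64.7%).

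Markers outside the selection were read for neuronal, glial, hemocyte and progenitor RNA. They do not bear on which transmitter a cell uses. The 4 neuronal markers together reached 59.4 UMIs per 10000 in glutamatergic cells, 49.8 in cholinergic and 58.8 in GABAergic cells, against 19.1 in the whole library. The 7 glial markers summed to 0.834 in glutamatergic cells, against 8.33 in 230 cells selected as glia, and alrm, an astrocyte marker, was at 0 in glutamatergic cells. The 4 hemocyte markers summed to 0.024 in glutamatergic, 0.270 in cholinergic and 0.847 in GABAergic cells, with NimC1 at 0 in the glutamatergic and GABAergic classes. At least 1 progenitor UMI was found in 36 glutamatergic cells, and at least 1 hemocyte UMI in 4. A doublet caller marked 36 of them (11.8%), against 12.8% of the library. VGlut itself was found in 1.7% of glial and 1.6% of hemocyte cells, whose median depths were 5047 and 11539 UMIs.

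The highest glutamatergic ratio that rested on many cells belonged to CG46448, a protein-coding gene without a given name. CG46448 (FBgn0287218) lies on chromosome 2L at 2391660 to 2392105 on the forward strand of BDGP6.54. This is 8189 bp before the start of VGlut, at 2400295 to 2410662 on the same strand. It had 1870 UMIs in 253 glutamatergic cells, 96 in 34 cholinergic cells and 10 in 7 GABAergic cells. In shares this was 82.7% of glutamatergic cells, against 3.48% of cholinergic and 4.05% of GABAergic cells. Its median glutamatergic cell held 4 UMIs, the highest held 74, and 53 cells held none. The pooled level was 63.5-fold higher than in cholinergic cells (95% interval 51.7 to 78.8) and 127-fold higher than in GABAergic cells (68.7 to 264). Cells selected as glia showed it at 3.91% and those selected as hemocytes at 4.8%, near the cholinergic and GABAergic shares.

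CG46448 followed VGlut from cell to cell. Its share was 69.4% in cells with 1 VGlut UMI, 86.7% with 2, 85.2% with 3 or 4 and 96.7% with 5 or more. In the 882 neurons without a transmitter UMI it was 9.07%. In the 64 cells that also held 1 UMI of VAChT or Gad1, CG46448 was found in 79.7%. Across the whole library, 64.2% of cells with VGlut held it, against 5.82% of cells without. Deeper cells hold more UMIs of both genes: median depth was 4060 UMIs in cells with 1 VGlut UMI and 6419 in those with 5 or more. Whether reads of a VGlut transcript were counted to CG46448 was not tested. With every cell thinned to 2000 UMIs, which left 275 glutamatergic cells, CG46448 was still found in 70.5% of glutamatergic, 1.73% of cholinergic and 1.88% of GABAergic cells. The thinned share was 0.592% in glia (0.0150% to 3.25%) and 0 in hemocytes (up to 3.33%). These intervals overlapped those of cholinergic (0.971% to 2.84%) and GABAergic cells (0.388% to 5.38%).

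**Figure D1:**
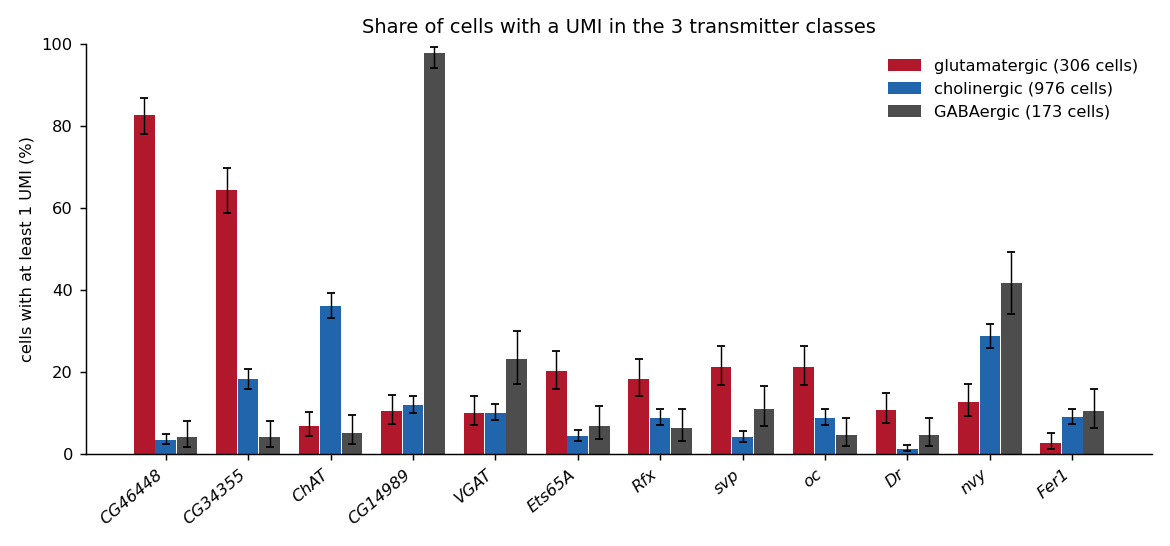
Share of cells with at least 1 UMI (y axis, percent) of 12 genes in 306 glutamatergic, 976 cholinergic and 173 GABAergic cells; bars are shares and whiskers exact 95% binomial intervals. CG46448 and CG34355 stand highest in glutamatergic cells, ChAT in cholinergic cells and CG14989, nvy and VGAT in GABAergic cells.

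CG34355, on chromosome 3R at 23803859 to 23859167, was the other gene found in most glutamatergic cells and in few of the others. It had 434 UMIs in glutamatergic, 263 in cholinergic and 9 in GABAergic cells. It was detected in 64.4% of glutamatergic cells, 18.2% of cholinergic and 4.05% of GABAergic cells. The level was 5.38-fold higher than in cholinergic (4.61 to 6.30) and 32.6-fold higher than in GABAergic cells (17.0 to 71.9). The share was 14.4% at 0 VGlut UMIs and 50.0%, 63.3%, 70.5% and 80.0% along the same 4 VGlut strata. At full depth CG34355 was found in 6.96% of glia, below the cholinergic share and above the GABAergic one. After thinning, CG34355 was in 41.1% of glutamatergic, 9.11% of cholinergic and 1.88% of GABAergic cells, and in 1.18% of glia. The thinned GABAergic and glial intervals overlapped, at 0.388% to 5.38% and 0.144% to 4.21%.

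**Figure D2:**
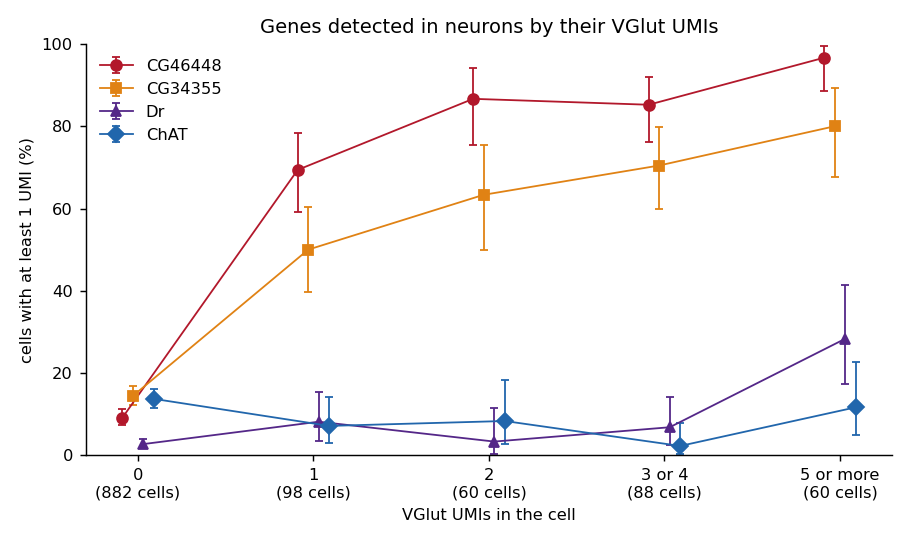
Share of neurons with at least 1 UMI (y axis, percent) of CG46448, CG34355, Dr and ChAT by the number of VGlut UMIs in the cell (x axis), with exact 95% binomial intervals; the cells at 0 hold no transmitter gene. CG46448 reaches 96.7% and CG34355 80.0% at 5 or more VGlut UMIs, while ChAT stays below 15% throughout.

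The other transmitter genes behaved by class. ChAT, the acetylcholine-synthesizing enzyme whose gene shares its first part with VAChT over 13416 bp of 1 strand, had 26 UMIs in glutamatergic, 571 in cholinergic and 11 in GABAergic cells. It was detected in 6.86% of glutamatergic and 36.2% of cholinergic cells, and in 1.30% of glia. ChT, the choline transporter, was 0.203 times as high in glutamatergic as in cholinergic cells (0.103 to 0.362). VGAT, the vesicular GABA transporter, was found in 10.1% of glutamatergic, 10.0% of cholinergic and 23.1% of GABAergic cells. Its glutamatergic level was 0.439 of the GABAergic one (0.278 to 0.684). CG14989 overlaps Gad1 by 1164 bp on the opposite strand, and whether strand was used in counting is not given in the sources used here. It was found in 10.5% of glutamatergic, 11.9% of cholinergic and 97.7% of GABAergic cells. It was also found in 31.9% of the 882 neurons without a transmitter UMI. Reads over the shared bases cannot be assigned to either gene without strand.

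Across the genome the class was close to its neighbours. A gene was compared when the 2 classes together held at least 100 UMIs. Of 4965 genes compared with cholinergic cells, 31 (0.624%) were at least 2-fold higher in glutamatergic cells and 114 (2.3%) at least 2-fold lower. Of 3013 compared with GABAergic cells, 22 (0.73%) were higher and 29 (0.962%) lower. The median ratio over all compared genes was 1.005 over cholinergic and 1.016 over GABAergic cells. With both comparisons possible for 3010 genes, 10 were 2-fold higher than in both classes and 13 lower than in both. Over cholinergic cells, a single cell of the higher class held more than 50% of the UMIs of 14 of the 114 lower and 2 of the 31 higher genes. Over GABAergic cells this held for 6 of the 29 lower and 1 of the 22 higher genes. There, a single cell held more than 10% of the UMIs of 27 of the 29 lower and 5 of the 22 higher genes. Both comparisons use the same glutamatergic cells, so their ratios are not independent. The list counts that follow are read against these background shares.

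**Figure D3:**
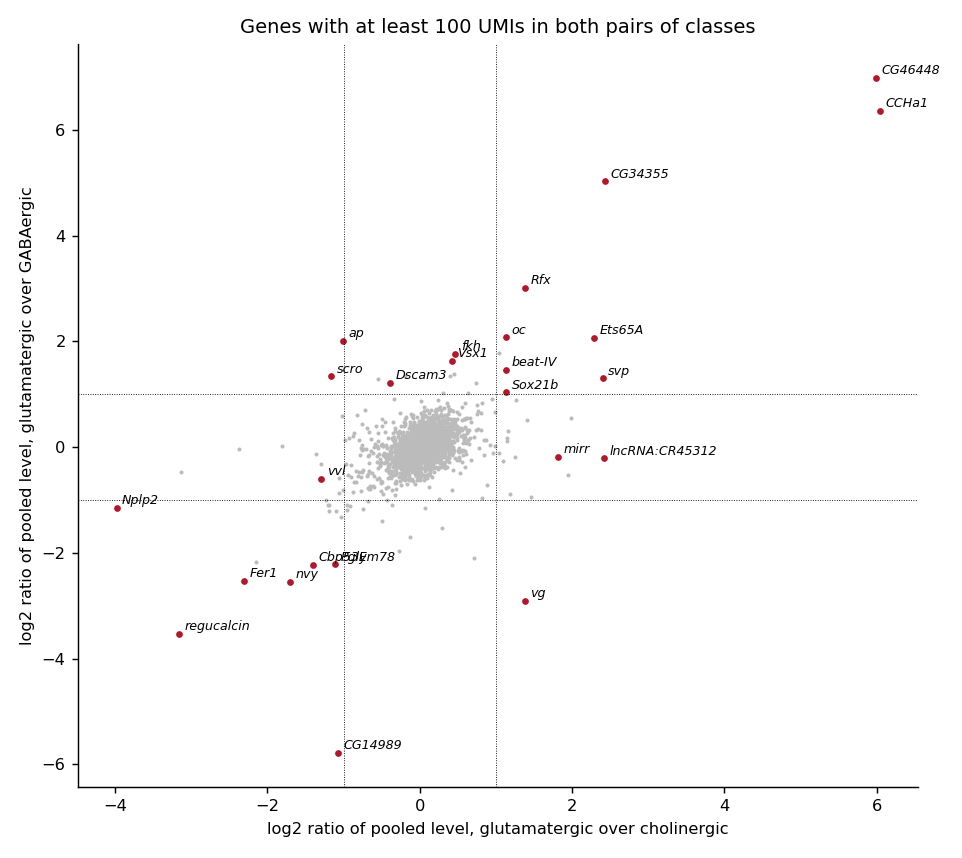
Log2 ratio of the pooled level in glutamatergic over cholinergic cells (x axis) and over GABAergic cells (y axis) for 3010 genes with at least 100 UMIs in both pairs; dotted lines mark 2-fold, and named genes are in red. Most genes lie near 0, CG46448, CCHa1 and CG34355 stand at the upper right, and nvy, Fer1 and regucalcin at the lower left.

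Genes of glutamate handling were measured besides VGlut. The 7 measured members of this list had a median log2 ratio of 0.17 over cholinergic cells, and the 5 measured over GABAergic cells had a median of -0.31. The aspartate aminotransferases Got1 and Got2 were at 1.37 (1.11 to 1.69) and 1.83 (1.19 to 2.77) times the cholinergic level. Eaat2, a glutamate family transporter, was detected in 31.4% of glutamatergic, 25.6% of cholinergic and 42.2% of GABAergic cells. Eaat1, the glial glutamate transporter, had 5 UMIs in the glutamatergic class.

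Besides CG46448 and CG34355, the genes higher than in both classes were mostly transcription factors found in a minority of glutamatergic cells. Ets65A, an ETS-domain factor, had 204 UMIs in 20.3% of glutamatergic cells, against 4.30% of cholinergic and 6.94% of GABAergic cells. Its level was 4.89-fold (3.92 to 6.12) and 4.19-fold (2.89 to 6.24) higher. svp, an orphan nuclear receptor, was found in 21.2% of glutamatergic, 4.10% of cholinergic and 11.0% of GABAergic cells, with ratios of 5.29 (3.93 to 7.16) and 2.46 (1.66 to 3.74). After thinning svp was in 11.3% of glutamatergic, 2.19% of cholinergic and 3.75% of GABAergic cells, but also in 8.28% of glia. Rfx, a regulatory factor X protein known from ciliated sensory neurons, was in 18.3%, 8.91% and 6.36% of the 3 classes in the same order, at 2.61-fold (2.08 to 3.26) and 8.07-fold (4.48 to 16). oc, the head homeobox gene orthodenticle, was in 21.2% of glutamatergic, 8.91% of cholinergic and 4.62% of GABAergic cells, at 2.2-fold (1.79 to 2.70) and 4.22-fold (2.78 to 6.65). The Sox gene Sox21b was at 2.2-fold (1.67 to 2.89) and 2.05-fold (1.35 to 3.22).

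Further down the ranking stood cell surface and secreted proteins. beat-IV, of the Beat immunoglobulin family of axon guidance proteins, had 220 UMIs in 32.0% of glutamatergic cells, against 19.4% of cholinergic and 21.4% of GABAergic cells. Its level was 2.2-fold (1.85 to 2.62) and 2.76-fold (2.04 to 3.79) higher. dpr11, a defective proboscis extension response protein that binds DIP partners, was 1.94-fold and 1.87-fold higher. mspo, a spondin of the extracellular matrix, was detected in 56.9% of glutamatergic, 39.4% of cholinergic and 43.4% of GABAergic cells at 1.69-fold and 1.74-fold. Fur1, a furin protease, stood at 1.77-fold and 1.78-fold, and beat-Ia at 1.66-fold and 2.33-fold. Pdp1, a bZIP factor of the circadian clock, was 2.40-fold and 1.86-fold higher, and 94 of its 474 glutamatergic UMIs came from 1 cell. CCHa1, the precursor of the peptide CCHamide-1, had the highest ratio of all over cholinergic cells, but 116 of its 121 UMIs lay in 1 glutamatergic cell. Without the highest cell of each class, CCHa1 stood at 3.26 times the cholinergic and 1.13 times the GABAergic level.

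These values depended in part on the 9 genes required absent. With those genes allowed, in 921 glutamatergic cells and the matching other classes, Ets65A was 2.56-fold and 2.2-fold higher, svp 2.96-fold and 1.87-fold, and beat-IV 1.39-fold and 1.36-fold. mspo stood at 1.07 and 1.19, Fur1 at 1.18 and 1.08, Pdp1 at 1.52 and 1.27, and dpr11 at 1.34 times the cholinergic and 0.982 times the GABAergic level. CG46448 stayed at 70.6-fold and 78.1-fold, and CG34355 at 5.05-fold and 38.0-fold.

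Other genes were higher than in cholinergic cells, and most of these were nearer to the GABAergic level. Dr, the muscle segment homeobox gene, had 85 UMIs in 10.8% of glutamatergic cells, 22 in 1.33% of cholinergic and 12 in 4.62% of GABAergic cells. This was 12.6-fold higher than in cholinergic (7.81 to 21.2) and 4.8-fold higher than in GABAergic cells (2.61 to 9.65), too few UMIs for the GABAergic ranking. mirr, the Iroquois homeobox gene whose driver was used in the study, had 312 UMIs in glutamatergic, 290 in cholinergic and 239 in GABAergic cells. It was 3.51-fold higher than in cholinergic cells (2.98 to 4.13) and 0.884 times the GABAergic level (0.744 to 1.05). grn, a GATA factor, stood at 3.95-fold over cholinergic (2.98 to 5.25) and 1.46-fold over GABAergic cells (1.04 to 2.06). With the 9 genes allowed, the cholinergic ratios of mirr and grn were 1.77 and 1.66. The noncoding RNA lncRNA:CR45312 was 5.37-fold higher than in cholinergic cells (4.66 to 6.20). Nplp1, a neuropeptide precursor, was in 13.4% of glutamatergic, 4.10% of cholinergic and 16.8% of GABAergic cells. DIP-beta, an immunoglobulin receptor of the dpr proteins, was 2.76-fold above cholinergic and 0.520 of GABAergic cells. vg, the vestigial transcription cofactor, was 2.61-fold above cholinergic cells and 0.133 times the GABAergic level (0.0967 to 0.179). PVRAP was 2.66-fold above cholinergic cells, and the 82 glutamatergic UMIs of CG14075 lay in 1 cell.

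Another set was at least 2-fold higher than in GABAergic cells and stood on either side of the cholinergic level. ap, the LIM homeobox gene apterous, had 89 UMIs in 17.6% of glutamatergic, 582 in 33.1% of cholinergic and 15 in 5.78% of GABAergic cells. Its glutamatergic level was 0.499 of the cholinergic (0.394 to 0.624) and 4.02-fold above the GABAergic one (2.31 to 7.48). scro, an NK2 homeobox gene, followed the same order at 0.448 (0.374 to 0.533) and 2.53-fold (1.77 to 3.71). Vsx1, a homeobox gene of the optic lobe, was at 1.34-fold (1.12 to 1.59) and 3.10-fold (2.19 to 4.48). fkh, a forkhead factor, was 3.39-fold higher than in GABAergic cells (2.23 to 5.33). Con, a leucine-rich repeat adhesion protein, was 2.53-fold and DIP-kappa 2.62-fold above the GABAergic level, and they were at 1.31 and 1.37 times the cholinergic one. The ligand Wnt4 was 2.52-fold above the GABAergic level, and 1.34-fold with the 9 genes allowed. Under the same setting DIP-kappa was 1.48-fold, scro 1.66-fold, fkh 2.15-fold and ap 2.51-fold above the GABAergic level.

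Some genes were lower than in both classes. nvy, a corepressor of the MTG family, had 64 UMIs in 12.7% of glutamatergic cells, 678 in 28.7% of cholinergic and 254 in 41.6% of GABAergic cells. Its level was 0.308 (0.234 to 0.398) and 0.171 (0.128 to 0.225) times theirs. Fer1, a bHLH factor, was in 2.61% of glutamatergic, 9.12% of cholinergic and 10.4% of GABAergic cells, with ratios of 0.202 (0.139 to 0.284) and 0.173 (0.116 to 0.252). CG9016 was in 1.96% of glutamatergic, 6.66% of cholinergic and 7.51% of GABAergic cells, at 0.225 and 0.223. Cbp53E, a calbindin that binds calcium, was at 0.380 (0.270 to 0.525) and 0.214 (0.147 to 0.305). ImpE2 was at 0.438 and 0.467 and lncRNA:CR33938 at 0.434 and 0.470, with 933 of 1357 GABAergic UMIs of the noncoding RNA in 1 cell. ps, the splicing regulator pasilla, was at 0.514 and 0.471, and beat-VII at 0.425 and 0.503. With the 9 genes allowed, Fer1 stood at 0.393 and 0.247 and Cbp53E at 0.568 and 0.474, while nvy stood at 0.374 and 0.199.

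Several other genes of this ranking rested on single cells of the comparison classes. regucalcin had 23 UMIs in glutamatergic cells, but 403 of its 672 cholinergic and 173 of its 180 GABAergic UMIs came from 1 cell each. Nplp2, a neuropeptide-like precursor, had 48 glutamatergic UMIs, and 1032 of 2469 cholinergic UMIs lay in 1 cell. Both are abundant in cells selected as hemocytes, where regucalcin was found in 72.8% and Nplp2 in 75.2%. Without cells holding any hemocyte marker, regucalcin was 1.17-fold and Nplp2 0.983 times the cholinergic level. Of the glutathione S-transferases, GstD1 was at 0.489 of the cholinergic and 0.400 of the GABAergic level, and was found in 84.8% of hemocytes. Without hemocyte-marked cells GstD1 was at 0.753 and 0.516. GstO3 was at 0.437 and 0.435, and GstS1 at 0.466 and 0.431. Over cholinergic cells, the muscle genes up, TpnC73F and Zasp66 also headed the lower ranking, with 165 of 173, 214 of 237 and 113 of 120 cholinergic UMIs in 1 cell. Glutamatergic cells held 1, 2 and 1 UMIs of these genes.

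A few of the lowest genes over cholinergic cells were spread over many cholinergic cells. The antisense transcript asRNA:CR45621 had 2 UMIs in glutamatergic cells, against 266 in 16.9% of cholinergic cells and 0 in GABAergic cells. Its ratio over cholinergic cells was 0.0245 (0.00295 to 0.0894), and 0.190 with the 9 genes allowed. The ligand gene Wnt10 had 1 UMI in glutamatergic, 140 in cholinergic and 29 in GABAergic cells. Its ratio over cholinergic cells was 0.0233 (0.000586 to 0.132), and 0.229 with the 9 genes allowed. PHDP, a homeobox gene, had 2 UMIs in glutamatergic, 113 in cholinergic and 1 in GABAergic cells. Over GABAergic cells the homeobox gene CG11294 was found in 9.48% of glutamatergic and 26% of GABAergic cells, at 0.234 of the level (0.171 to 0.316). CG11294 stood at 0.688 with the 9 genes allowed. It turned round to 2.49 where every transmitter gene needed 3 UMIs, which left 27 GABAergic cells. beat-Ib and beat-Ic were at 0.256 and 0.306 of the GABAergic level, and beat-Ic was at 0.917 of the cholinergic level (0.722 to 1.15).

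The receptors that glutamatergic cells carried differed little from those of the other classes. Of 8 measured glutamate receptor genes none was 2-fold higher or lower than in cholinergic cells, and none of 6 over GABAergic cells. GluClalpha was detected in 55.6% of glutamatergic, 47.3% of cholinergic and 59.0% of GABAergic cells, with ratios of 1.12 (0.996 to 1.26) and 1.09 (0.927 to 1.29). CG11155, an ionotropic glutamate receptor gene of the kainate type, was found in 53.9%, and the AMPA type genes GluRIB and GluRIA in 16% and 13.1% of glutamatergic cells. The NMDA receptor genes Nmdar2 and Nmdar1 were in 20.6% and 7.19%. The neuromuscular subunits GluRIIA, GluRIIB, GluRIIC and GluRIID had 0 UMIs in the glutamatergic class, which allows up to 0.0177 UMIs per 10000 for each, and GluRIIE had 1 UMI.

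Acetylcholine receptor genes had the most UMIs among the transmitter receptors of the class. The 13 listed genes summed to 17.2 UMIs per 10000, against 6.30 for 17 glutamate and 5.52 for 7 GABA receptor genes. These sums follow the numbers and lengths of the genes and are not set against each other per length. nAChRalpha6 was in 70.9% of glutamatergic, 61.3% of cholinergic and 61.9% of GABAergic cells, at ratios of 1.02 (0.946 to 1.10) and 0.950 (0.857 to 1.05). nAChRalpha1 was in 66.7%, 53.8% and 74.6% of the same classes. None of the 10 measured members passed 2-fold over either class. Rdl, the ionotropic GABA receptor, stood below both classes in pooled level, at 0.746 (0.674 to 0.823) and 0.753 (0.660 to 0.858). Its shares were not lower, at 49.3% of glutamatergic, 45.8% of cholinergic and 45.1% of GABAergic cells. After thinning they were 31.3%, 31.7% and 33.1%. GABA-B-R1, a metabotropic GABA receptor, was in 47.1% of glutamatergic cells.

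Of 9 monoamine receptor genes measured, 2 were at least 2-fold lower than in cholinergic cells, and of 5 measured over GABAergic cells none passed while the median log2 ratio was -0.59. The dopamine receptors Dop1R1 and Dop1R2 stood at 0.481 (0.354 to 0.644) and 0.400 (0.242 to 0.632) of the cholinergic level. DopEcR, a receptor for dopamine and ecdysteroids, was found in 35.3% of glutamatergic, 33.8% of cholinergic and 50.9% of GABAergic cells. The octopamine receptor Octbeta2R, with too few UMIs for the GABAergic ranking, was at 0.349 of the GABAergic level (0.221 to 0.544) and 1.03 times the cholinergic one (0.672 to 1.55).

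Neuropeptide genes were rare and uneven. Of 43 listed genes 27 had a UMI in glutamatergic cells and 3 were found in at least 5% of them. Over cholinergic cells 2 of 9 measured genes were at least 2-fold higher and 5 lower, and over GABAergic cells 1 of 4 was higher and 1 lower. Gpb5, a glycoprotein hormone subunit, was the most widely detected, in 19.9% of glutamatergic cells, against 16.9% of cholinergic and 17.3% of GABAergic cells. Capa, the capability peptide precursor, had 78 UMIs, of which 73 were in 1 cell. Dh31, a diuretic hormone gene, had 28 of its 46 UMIs in 1 cell. sNPF, the short neuropeptide F precursor, had 19 UMIs in 1.31% of glutamatergic cells, against 154 in 5.12% of cholinergic and 31 in 4.62% of GABAergic cells. FMRFa and the peptidergic regulator dimm had 0 UMIs in the class, while cholinergic cells held 199 and 19. FMRFa was thus at least 20.3-fold lower, with 3 UMIs over the class as the floor. However, 101 of the 199 cholinergic UMIs of FMRFa lay in 1 of 7 cells, and without each gene's highest cell the glutamatergic floor was 0.0998 of the cholinergic level. After thinning it was 0.287. The peptide processing genes were close to those of the other classes: 7B2, a chaperone of the prohormone convertase amon, was 1.32-fold above cholinergic (1.17 to 1.49) and 0.987 of GABAergic cells (0.841 to 1.16). Of the peptide receptors, AstC-R2, an allatostatin C receptor, was in 18.6% of glutamatergic, 8.09% of cholinergic and 17.3% of GABAergic cells. Its level was 2.22-fold (1.82 to 2.70) and 1.09-fold (0.850 to 1.40) theirs.

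The class was a mixture by its transcription factors. Of 172 measured factors, 83 were found in at least 5% of glutamatergic cells and only 15 in at least 50%, while 16 had no UMI. Of the homeobox factors, 5 of 30 were at least 2-fold higher and 7 lower than in cholinergic cells, and 5 of 22 higher and 2 lower than in GABAergic cells. Of the other factors, 4 of 63 were higher and 6 lower than in cholinergic, and 3 of 42 higher and 3 lower than in GABAergic cells. These shares are larger than the 0.624% to 2.3% of all genes, but the lists were chosen with earlier results of these data known, and nothing was tested.

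Other factors with few UMIs extended these patterns. fd59A, a forkhead factor, was found in 12.7% of glutamatergic, 1.74% of cholinergic and 5.20% of GABAergic cells, at 8.61-fold (5.36 to 14.2) and 3.44-fold (1.88 to 6.79). tj, the large Maf factor traffic jam, had 41 UMIs in 8.17% of glutamatergic cells, against 20 in 0.717% of cholinergic and 2 in 0.578% of GABAergic cells. HLH3B, a bHLH factor, and Lmx1a, a LIM homeobox gene, were 17.8-fold (9.78 to 35.1) and 6.23-fold (3.63 to 10.9) above cholinergic cells. Rx and otp, both homeobox genes, had 33 and 38 glutamatergic UMIs and 0 in GABAergic cells. The Sox gene SoxN was at 1.30-fold (1.20 to 1.41) over cholinergic and 1.64-fold (1.45 to 1.86) over GABAergic cells.

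Several homeobox and Pax genes were lower in the glutamatergic class than in 1 or both of the others. acj6, a POU factor, was in 4.58% of glutamatergic and 13.8% of cholinergic cells, at 0.171 of the cholinergic level (0.119 to 0.238). It was found in 4.05% of GABAergic cells and stood at 2.78 times their level. Optix, a sine oculis family gene of the eye and optic lobe, was at 0.135 of the cholinergic level (0.0838 to 0.206). vvl, another POU factor, was at 0.409 of the cholinergic level (0.351 to 0.474). Sox102F was at 0.256 of the cholinergic (0.186 to 0.346) but 5.19-fold above the GABAergic level (2.21 to 14.9). With the 9 genes allowed, Optix stood at 0.713 and vvl at 0.799 of the cholinergic level. ct, the homeobox gene cut, was at 0.591 of the cholinergic and 1.02 of the GABAergic level, and hth, homothorax, at 0.669 of the GABAergic level (0.631 to 0.710). Poxn, a Pax gene, had 0 UMIs in glutamatergic, 18 in cholinergic and 92 in GABAergic cells.

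**Figure D4:**
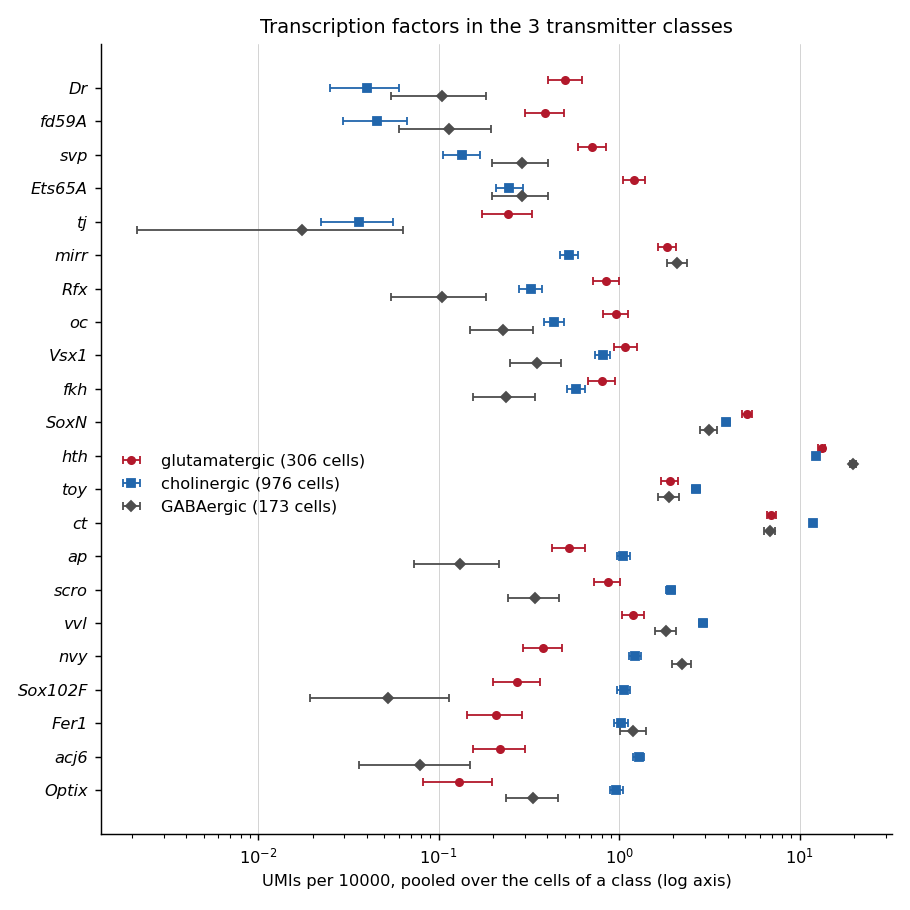
Pooled level in UMIs per 10000 (x axis, log scale) of 22 transcription factors in 306 glutamatergic, 976 cholinergic and 173 GABAergic cells, with exact 95% Poisson intervals of the count. Dr, fd59A, svp and Ets65A stand above both other classes, mirr lies near the GABAergic level, and nvy, Fer1, Optix and vvl lie below both.

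Within the glutamatergic cells the factors fell into combinations. Among 61 factors found in 5% to 40% of cells, 51 of 1830 pairs were seen together in at least 10 cells and at least 2 times as often as the product of their shares. This count carries no test, and cells with more UMIs raise all pairs together. Related factors led it. CG4328 and Lmx1a, both LIM homeobox genes, were found together in 11 cells, 8.01 times the product, disco and disco-r in 14 cells (7.76 times), and salm and salr in 27 cells (6.39 times). bab1 and bab2 shared 22 cells (3.94 times) and the Iroquois genes caup and mirr 13 cells (4.03 times). Factors of different families also paired: Dr with grn in 19 (5.34 times), Lmx1a with fd59A in 13 (5.10 times), dve with oc in 22 (3.34 times) and Lim1 with grn in 29 (3.32 times). Other factors seldom met. oc and Ets65A shared 3 cells where the product gave 13.2, zfh2 and svp 4 where it gave 14.9, and Vsx1 and Mef2 2 where it gave 8.82.

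Dr marked such a combination. The 33 cells with Dr held grn in 57.6% (exact interval 39.2% to 74.5%), against 5.13% (2.83% to 8.45%) of the 273 cells without. ey, a Pax6 gene, was in 30.3% of cells with Dr and 3.30% of cells without. Lim1 was in 63.6% and 22.0%, and Ets65A in 48.5% and 16.8%. Vsx1 ran the other way, in 1 of 33 cells with Dr (3.03%) and in 21.6% of those without. Median depth was 5425 UMIs with Dr and 4604 without. Cells with Dr and grn, ey, Lim1 or Ets65A had medians of 7103, 7211, 7103 and 7180 UMIs. The pooled VGlut level was 8.27 UMIs per 10000 with Dr (7.12 to 9.56) and 5.80 without (5.42 to 6.21). The median cell was closer, at 5.63 with Dr and 5.18 without. Dr was found in 8.16%, 3.33%, 6.82% and 28.3% of cells with 1, 2, 3 or 4, and 5 or more VGlut UMIs. Cells with 5 or more VGlut UMIs were also deeper, at a median of 6419 UMIs against 4060 in those with 1.

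Cells with oc and cells with Ets65A formed nearly separate sets. Of the 65 cells with oc, 4.62% held Ets65A, against 24.5% of the 241 cells without oc. dve, a homeobox gene, was in 33.8% of cells with oc and 3.73% of cells without. The 62 cells with Ets65A held SoxN in 72.6%, against 43.0% of the 244 cells without, and the Sox gene D in 48.4% against 20.9%. mamo stood at 52.0 UMIs per 10000 with Ets65A and 27.9 without, and pros at 88.1 with and 221 without. Of the 60 cells with Vsx1 none held grn, against 13.4% of the 246 others. These 60 cells also held nerfin-1, a factor of newly formed neurons, in 56.7%, against 37.0% of the others, and Imp in 25.0% against 43.9%.

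Several of the most uneven genes differed between glutamatergic cells with and without Imp, a gene of neuronal birth order. Imp and Syp are RNA-binding proteins with opposite levels over time in neuroblasts, where early-born neurons keep Imp. Imp was in 40.2% of glutamatergic, 39.3% of cholinergic and 44.5% of GABAergic cells, and Syp in 96.1%, 95.5% and 96.5%. The 123 glutamatergic cells with Imp had a median of 6510 UMIs and the 183 without had 4114. Cells were therefore thinned to 2000 UMIs and split anew by Imp in the thinned counts, into 94 with and 181 without. A cell that lost its Imp UMIs in thinning thus counts as without. pros, the homeobox factor prospero, stood at 68.5 UMIs per 10000 with Imp (64.8 to 72.3) and at 294 without (289 to 300). jim, a zinc finger factor, stood at 26.1 (23.9 to 28.5) and 103 (99.5 to 106). The noncoding RNA lncRNA:noe was at 192 and 300, fne, a neuronal RNA-binding protein, at 34.1 and 47.2, br at 6.65 and 14.8, and Syp at 13.6 and 20.2. Above them in cells with Imp stood mamo at 44.8 (41.8 to 47.9) against 26.8 (25.2 to 28.6) and hth at 15.3 against 9.64.

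Genes of neuronal function followed Imp as well. IA-2, a protein of secretory vesicles, was at 18.6 UMIs per 10000 in thinned cells with Imp (16.7 to 20.6) and 3.07 in cells without (2.52 to 3.69). Frq1, a frequenin calcium sensor, was at 7.02 and 0.884, Rdl at 4.15 and 1.88, nAChRalpha6 at 7.45 and 4.56, and the microtubule-associated futsch at 3.03 and 1.24. para, the voltage-gated sodium channel, was at 1.38 (0.903 to 2.03) and 0.414 (0.232 to 0.683). The intervals of VGlut itself overlapped, at 8.24 (7.0 to 9.65) and 6.63 (5.82 to 7.52). nerfin-1 ran the other way at 0.851 and 2.65, as did Eip93F, an ecdysone-induced factor, at 2.61 and 6.27. Hey, a Notch target of newborn neurons, did not: it was at 0.532 with Imp (0.255 to 0.978) and 0.635 without (0.403 to 0.953), and before thinning it was in 18.7% of cells with Imp and 7.65% of cells without. Before thinning, the median glutamatergic cell with Imp held 7.48 UMIs of pros per 10000, and the median cell without held 210. The split had the same direction for these genes in the other classes: pros stood at 55.1 with and 206 without Imp in cholinergic cells, and at 79.6 with and 336 without in GABAergic cells.

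**Figure D5:**
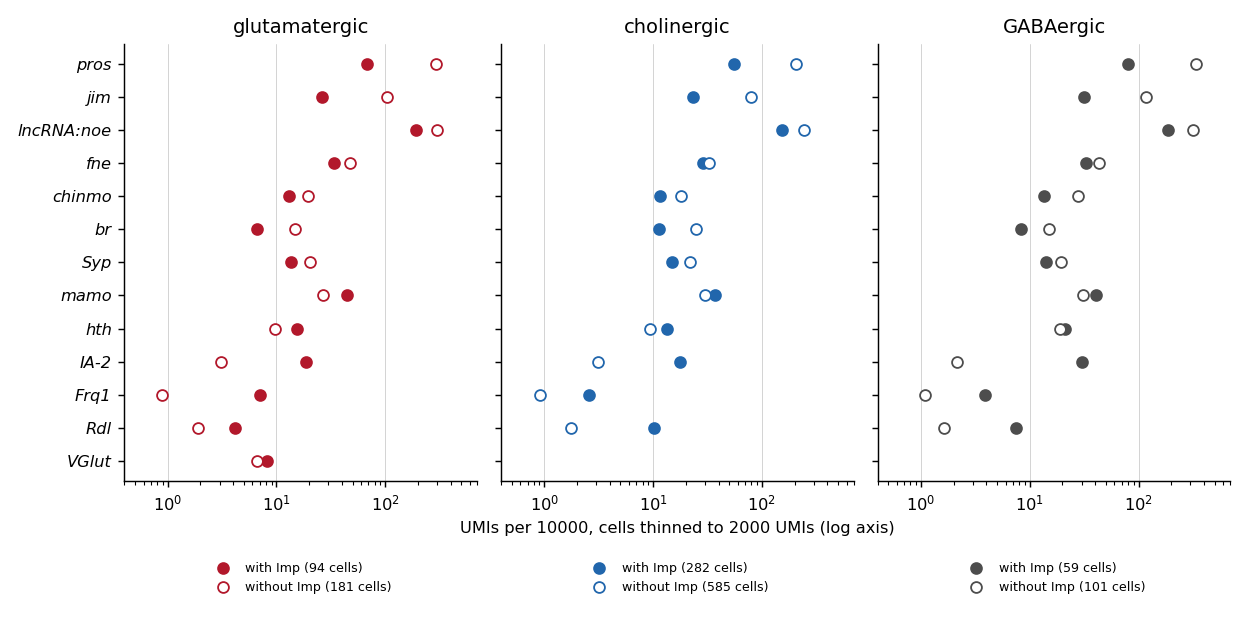
Level in UMIs per 10000 (x axis, log scale) of 13 genes in cells with Imp (filled points) and without Imp (open points) after thinning to 2000 UMIs a cell, in glutamatergic, cholinergic and GABAergic neurons. Imp was scored in the thinned counts. pros, jim and lncRNA:noe lie lower and IA-2, Frq1 and Rdl higher in cells with Imp in all 3 panels, and VGlut is drawn only where it was found.

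The most abundant RNAs were shared between the classes. Hsp23, a small heat shock protein, stood at 250.4 UMIs per 10000 in glutamatergic, 249.7 in cholinergic and 224 in GABAergic cells. lncRNA:noe followed at 245, 194 and 241 and pros at 193, 152 and 223. Hsp26 and Hsp27, also heat shock proteins, were at 102 and 92.1 in glutamatergic cells. Spread between cells beyond counting error was ranked for 1138 genes with at least 200 UMIs. pros came first, with 45.5% of its UMIs in the highest 31 cells, a median cell of 21.5 and a highest cell of 817 UMIs. lncRNA:cherub, known from neuroblasts, came second, with 75.7% of its 6621 UMIs in 31 cells. It was found in 90.8% of glutamatergic cells, mostly at low counts with a median of 4 UMIs. lncRNA:noe and mt:lrRNA came next, followed by IA-2, Obp44a, jim, mamo, lncRNA:CR45223 and Frq1. lncRNA:CR45223 had all of its 399 UMIs in 28 cells.

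Glycolysis genes stood lower in the glutamatergic class. Of 12 measured glycolysis genes 11 lay below the cholinergic level and 2 were at least 2-fold lower, with a median log2 ratio of -0.47. Over GABAergic cells 3 of 10 were 2-fold lower and the median was -0.76. Ald1, fructose bisphosphate aldolase, stood at 3.82 UMIs per 10000 in glutamatergic, 5.40 in cholinergic and 10.1 in GABAergic cells, where 356 of 1159 UMIs came from 1 cell. Pglym78, phosphoglycerate mutase, was at 0.464 (0.351 to 0.604) and 0.216 (0.160 to 0.287), and Ldh, lactate dehydrogenase, at 0.384 and 0.379. With the 9 genes allowed, Pglym78 stood at 0.680 and 0.383. Nuclear respiratory chain genes had median log2 ratios of 0.00 over cholinergic and -0.14 over GABAergic cells, with 0 of 61 and 0 of 60 past 2-fold. Ribosomal protein genes lay at -0.07 and -0.06, with none of 82 and 81 past 2-fold. Of 35 active zone and vesicle genes measured over cholinergic cells and 27 over GABAergic cells none was 2-fold higher, and 1 was 2-fold lower in each comparison. That gene was CG14989, which stood on the list and held 6159 of its 13314 UMIs in GABAergic cells. The list's median log2 ratios were -0.03 and -0.12. Of 23 ion channel genes over cholinergic and 14 over GABAergic cells none was 2-fold higher and 1 was 2-fold lower in each, slo over cholinergic and para over GABAergic cells.

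Among channel and maturation genes, para was at 0.532 of the cholinergic (0.431 to 0.650) and 0.462 of the GABAergic level (0.360 to 0.592), and futsch at 0.584 and 0.560. With the 9 genes allowed, para stood at 0.759 and 0.619 and futsch at 0.911 and 0.882. The calcium-activated potassium channel slo was at 0.462 of the cholinergic level (0.333 to 0.628). The T-type calcium channel Ca-alpha1T ran the other way at 1.83-fold over cholinergic cells (1.52 to 2.21). Cell surface lists were mixed. Of 21 DIP and dpr genes 1 was 2-fold higher and 2 lower than in cholinergic cells, and of 20 beat and side genes 1 was higher and 3 lower. side-VIII and side-IV, receptors of the Sidestep family, were at 0.388 (0.291 to 0.509) and 0.316 (0.206 to 0.466) of the cholinergic level and at 0.908 and 1.12 of the GABAergic level. Of 57 axon guidance genes 1 was 2-fold lower than in cholinergic cells. Of 54 measured over GABAergic cells 3 were higher and 1 lower. Dscam3 was 2.32-fold above the GABAergic level (1.60 to 3.42), and Fas2, a homophilic adhesion protein, 1.83-fold (1.55 to 2.16).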

How the data were processed

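Brain complexes of the 2 genotypes, 1 10x library each, were aligned by the authors with Cell Ranger to BDGP6 and handled in Seurat. Cell filters and strand use in counting are not given in the sources used here. The deposited values were natural log of 1 plus UMIs scaled to 10000 per cell. Whole UMIs were recovered for 100% of values within 0.01, and used for all levels. Neither cell number that the paper gives for a genotype equals the number of barcodes in the table. The methods speak of triplicates, whereas the labels give 1 library per genotype.

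UMIs were pooled over the cells of each class. Levels are per 10000 UMIs, and ratios carry exact 95% intervals. The ratio code was tested on simulated data. Genes with at least 100 UMIs in the 2 classes were compared, without gate genes and 2017 transposable elements among 15902 features. No test was made, since only 1 library remained. Doublets were kept: Scrublet in scanpy 1.11.5 called 4304 cells (12.8%), left out as an alternative. Genes were named by list, by size of ratio (15 highest and lowest), by spread and by level (20 highest). The cells and gene lists were chosen with earlier results of these data known. Other alternatives varied the UMI minimum for the transmitter gene, the genes required absent, progenitor cells, depth, pooling, the pseudocount (0.1) and the gene minimum (20 or 500 UMIs). Leaving out hemocyte-marked cells or each gene's highest cell was chosen after seeing the data. Python 3.11.15, NumPy 2.4.6, SciPy 1.17.1 and pandas 2.3.3 were used. Positions are from the Ensembl annotation of BDGP6.54. Some genes that the naming rule covers are not reported here.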

Additional observations from a re-analysis of the deposited data

How the results depend on the processing

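No paired analysis was possible because only 1 library remained. The number of glutamatergic cells, 306, was 208 or 148 when every transmitter gene needed at least 2 or 3 UMIs of its own class, 362 when VGlut only had to exceed VAChT and Gad1, 921 with the 9 other genes not required absent, and 270 without called doublets or without cells holding progenitor UMIs. Over cholinergic cells, 31 genes (0.624% of those compared) were at least 2-fold higher. The count became 53 (0.721%) with the 9 genes allowed and 13 (0.499%) after thinning. It was 118 (1.57%) at a minimum of 20 UMIs and 7 (0.386%) at 500 UMIs. The 114 lower genes (2.3%) became 48 (1.84%) after thinning, 482 (6.41%) at 20 UMIs and 23 (1.27%) at 500 UMIs. Over GABAergic cells, the 22 higher genes (0.73%) became 43 (2.76%) at 3 transmitter UMIs, where 27 GABAergic cells remained. They became 41 (0.651%) with the 9 genes allowed and 6 (0.51%) after thinning. At 20 UMIs they were 150 (2.42%) and at 500 UMIs 2 (0.256%). The 29 lower genes (0.962%) became 83 (5.32%), 49 (0.778%), 7 (0.595%), 199 (3.21%) and 5 (0.641%) under the same settings. They became 19 (0.723%) without progenitor cells and 14 (0.487%) without each gene's highest cell. Thinning left 2603 genes to compare over cholinergic and 1177 over GABAergic cells, against 4965 and 3013. With the 9 genes allowed, 7354 and 6300 genes were compared. The median log2 ratio of ribosomal proteins over cholinergic cells was 0.0106 with a mean over cells, and over GABAergic cells it was 0.0254 with a mean over cells, 0.0179 without progenitor cells and 0.014 after thinning.

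Some genes turned round in direction, given as log2 ratios. Over cholinergic cells these were regucalcin at 0.2277 without hemocyte-marked cells, and Nplp2 at 0.0481 and beat-Ia at -0.0255 at 3 transmitter UMIs. Over GABAergic cells regucalcin stood at 1.6258 at 3 transmitter UMIs, 1.0879 without progenitor cells, 1.1158 without hemocyte-marked cells and 1.0224 without its highest cell. Nplp2 stood at 0.5104, 0.2342, 0.3103 and 0.2288 under the same settings, and at 2.3905 with VGlut above the other genes. At 3 transmitter UMIs GstD1 stood at 1.4279, CG11294 at 1.3177 and ImpE2 at 0.3517, and at 2 UMIs ImpE2 stood at 0.3247 and lncRNA:CR33938 at 0.1953. With the 9 genes allowed, dpr11 stood at -0.0268, Dh31 at -0.2284, vvl at 0.1211 and lncRNA:CR33938 at 0.0922. lncRNA:CR33938 stood at 0.1305 without progenitor cells and 0.3479 without its highest cell. The setting of 3 transmitter UMIs left 302 cholinergic and 27 GABAergic cells. Where no value shows the cause, the cause was not tested. The settings without hemocyte-marked cells and without each gene's highest cell were chosen after seeing the data.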

Other observations

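The roX genes encode noncoding RNAs of dosage compensation that are made in males. At least 1 roX UMI was found in 166 of 306 glutamatergic cells (54.2%, exact 95% interval 48.5% to 59.9%), in 591 of 976 cholinergic cells (60.6%, 57.4% to 63.6%) and in 108 of 173 GABAergic cells (62.4%, 54.8% to 69.7%). At least 10 roX UMIs were found in 85 glutamatergic cells (27.8%), 287 cholinergic cells (29.4%) and 61 GABAergic cells (35.3%). The sexes were not separated in the labels.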
